A study of Mus musculus with 26 samples.

Results

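The mouse Serpina3 cluster is a row of neighbouring serpin genes on chromosome 12, and 9 of them were followed here: Serpina3b, Serpina3c, Serpina3f, Serpina3g, Serpina3h, Serpina3i, Serpina3k, Serpina3m and Serpina3n. A probe set was taken as a member when the array annotation gave it 1 gene symbol and that symbol, current or older, was 1 of the 9. There were 40 such probe sets among 65535, and they covered 8 of the 9 genes. Serpina3f, Serpina3k and Serpina3n had 6 each, Serpina3b, Serpina3c and Serpina3i had 5 each, Serpina3g had 4 and Serpina3h had 3. No probe set carried the symbol Serpina3m, which was not analysed here. Of the 40 probe sets 27 exceeded the median of an array's probe sets in at least 2 arrays and were tested, among 39400 tested in all.

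Serpins inhibit proteases by offering a loop as bait, which traps the protease in a stable complex. In humans the locus holds SERPINA3, which encodes antichymotrypsin, a secreted acute-phase protein of liver, and in mice it has multiplied into a family whose reactive loops differ. Serpina3g, also called Spi2A, acts inside the cell on lysosomal cysteine cathepsins, and Serpina3n is a secreted inhibitor of granzyme B and leukocyte elastase. Interferon gamma (IFNγ) acts through its receptor on the cell surface, and many genes that respond to it carry palindromic gamma-activated sites in their promoters.

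Gene expression was measured on Affymetrix arrays in 26 samples of endothelial cells, sorted as CD31+ and CD146+ from female mice that carried MCA313, J558L or 16.113 tumours. MCA313 tumours, which can be induced to make IFNγ, grew in PIG-Pdgfb-Cre-IFNγ-del mice, in which the IFNγ receptor is expressed in endothelial cells alone. They were sampled without induction (0 h, 3 arrays) and after 24 h (2 arrays) and 48 h (2 arrays), in mice aged 4 to 6 months. J558L tumours, inducible for an IFNγ-GFP fusion, grew in Rag-/- mice of the same age that have the receptor on all cells and lack mature T and B cells. Endothelium came from the tumour at 0 h (2 arrays) and 24 h (3 arrays), and from the kidney of such mice at 0 h (3 arrays) and 24 h (3 arrays). 16.113 tumours grew in Rag-/- mice aged 3 to 4 months and were sampled 120 h after transfer of tumour-specific T cells, either able to produce IFNγ (competent, 3 arrays) or taken from IFNγ-/- donors (deficient, 5 arrays); these hosts too have the receptor on all cells. Nothing states whether arrays of a group came from separate animals, so p-values measure the spread between these samples, which may be technical. The comparisons ask which genes IFNγ changes in endothelium when it comes from the tumour cells, in the tumour and at a distance in the kidney, and when it comes from T cells.

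The arrays fell into 4 separately normalized sets (16.113, MCA313, and J558L tumour and kidney each on their own), with array medians from 5.62 to 6.46 on the log2 scale. Levels were therefore compared within a set only. The CD31 gene Pecam1 had group means of 13.51 to 13.95, and all 5 measured endothelial markers of 17 listed were above the array medians in every array. Markers of other cells were also read: 9 of 18 leukocyte genes, of which Lyz1 never exceeded the array medians, 5 of 13 T and NK cell genes, 5 of 9 plasma cell genes, 7 of 13 fibroblast and mural genes, of which Lum never did, and 6 of 16 kidney epithelial genes. Above the medians in every array were 5 of the leukocyte, 2 of the T and NK cell and 4 of the plasma cell genes. So were 4 of the fibroblast and mural and 4 of the kidney epithelial genes.

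In RefSeq (assembly GRCm38.p6) the genes lie in the order Serpina3a, 3b, 3c, 3f, 3g, 3h, 3i, 3j, 3k, 3m and 3n, with 3 pseudogenes between them, and Serpina3h is itself listed as a transcribed pseudogene. Promoter windows of 300 bases, from 250 before to 50 after an annotated start, were on hand for 6 members, Serpina3f with 2 starts. Serpina3h, Serpina3k and Serpina3m had no window. The following 41 bases can be laid side by side in all 6 without gaps. They are shown because Serpina3f and Serpina3g carry there a gamma-activated-site-like motif, TTCNNNGAA. These were the members whose brightest probe set passed with IFNγ, while Serpina3h, without a window, passed at other probe sets. Serpina3i carries the motif too, and Serpina3b, Serpina3c and Serpina3n do not. Capitals mark the motif, and each line reads 5′ to 3′ along the strand of the gene.
Serpina3f: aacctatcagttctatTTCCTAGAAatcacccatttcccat
Serpina3g: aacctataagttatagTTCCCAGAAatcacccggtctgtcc
Serpina3i: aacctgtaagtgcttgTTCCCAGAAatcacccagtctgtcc
Serpina3n: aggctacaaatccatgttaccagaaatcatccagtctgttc
Serpina3c: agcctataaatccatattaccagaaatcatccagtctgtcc
Serpina3b: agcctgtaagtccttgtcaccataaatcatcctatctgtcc

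These stretches lie at chr12:104214407-104214447 (Serpina3f), chr12:104236098-104236138 (Serpina3g), chr12:104263004-104263044 (Serpina3i), chr12:104406569-104406609 (Serpina3n) and chr12:104127857-104127897 (Serpina3b), all on the plus strand, and at chr12:104153968-104154008 on the minus strand for Serpina3c. All lie upstream of the annotated start. Of the 41 bases Serpina3g shared 29 with Serpina3f, Serpina3i 28, Serpina3c 24 and Serpina3b and Serpina3n 22 each. Counted from the start, the motif ran from -121 to -113 in Serpina3f (from -210 to -202 for its second start), from -33 to -25 in Serpina3g and from -102 to -94 in Serpina3i. Serpina3i also held the form of the motif with a spacer of 4 bases, as TTCCTAAGAA, from -34 to -25. The core of the interferon-stimulated response element had no match in the 7 windows on either strand. Of 32851 windows of that length in RefSeq, 8.3% held TTCNNNGAA, 6.95% the form with the longer spacer and 3.44% the response element core. A match is a description of the letters and not of binding, which was not measured.

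**Figure D1:**
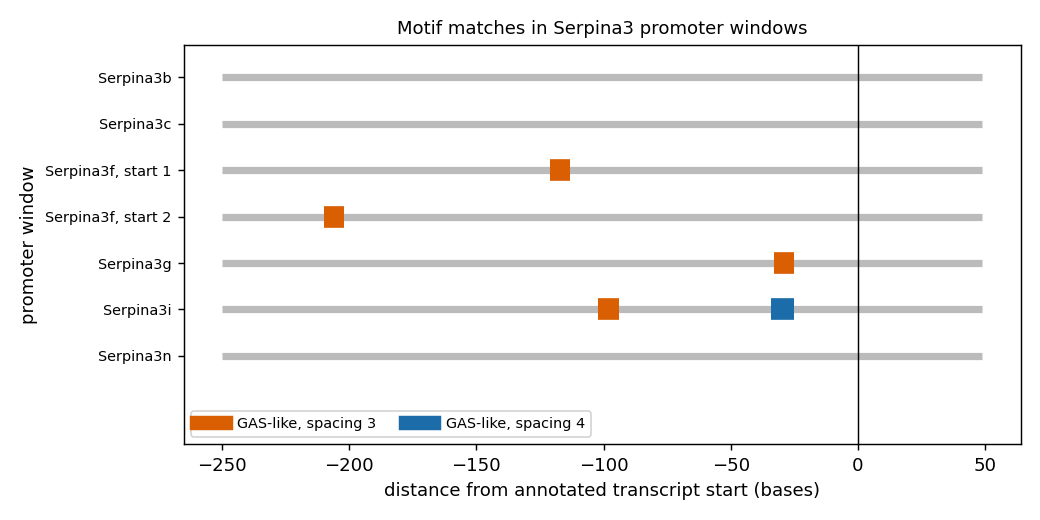
Position of motif matches in the promoter windows of the 6 members that had one, as distance in bases from the annotated transcript start (vertical line). Orange blocks are matches to the gamma-activated-site-like motif with a spacer of 3 bases and the blue block is the form with 4; Serpina3b, Serpina3c and Serpina3n have neither.

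Serpina3f, the gene next to Serpina3g, rose in the kidney and in 16.113 tumours, 14.6-fold and 19.3-fold at its brightest probe set, 17278275. In the kidney this probe set read 9.31, 7.56 and 9.52 without induction and 12.62, 12.49 and 12.87 at 24 h. The groups did not overlap, and control replicate 2 was the lowest. The difference was 3.87 ± 0.50 on the log2 scale (value ± standard error throughout; limma adjusted p = 1.19e-04, n = 3 and 3). In 16.113 tumours the deficient arrays read 8.07, 8.11, 7.69, 7.02 and 7.98 and the competent ones 11.92, 12.23 and 11.99. All 5 arrays with deficient T cells were low, and the difference was 4.27 ± 0.45 (limma adjusted p = 8.03e-06, n = 3 and 5). Both calls remained in each of the 14 and 16 other fits tried; without control replicate 2 the kidney difference was 3.25.

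Probe set 17278275 was above the array median in all 26 arrays, the controls of every set included. In MCA313 tumours the 0 h arrays read 9.73, 11.54 and 12.46, those at 24 h 12.71 and 12.94, and those at 48 h 12.90 and 12.79. Control replicate 3 lay close to the induced arrays and replicate 1 far below, so that the control SD was 1.39 (n = 3) and those of the induced groups 0.17 and 0.07 (n = 2). All induced arrays were above all controls, by 1.58 ± 0.56 at 24 h (limma adjusted p = 0.246) and 1.60 ± 0.56 at 48 h (limma adjusted p = 0.190), and neither passed. Both rested on single controls: without control replicate 1 they were 0.82 and 0.84, and without control replicate 3 they were 2.19 and 2.21, of which the second passed (limma adjusted p = 0.0435). In J558L tumours the arrays read 10.99 and 11.52 at 0 h and 12.72, 12.75 and 12.84 at 24 h, a difference of 1.52 ± 0.56 that did not pass (limma adjusted p = 0.374).

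Serpina3g, the cathepsin inhibitor, rose in the same comparisons, 6.05-fold in the kidney and 3.80-fold in 16.113 tumours at probe set 17278289. In the kidney it read 9.49, 10.05 and 11.28 without induction, with replicate 3 highest, and 12.88, 12.69 and 13.04 at 24 h. The difference was 2.60 ± 0.54 (limma adjusted p = 0.00865), and without control replicate 1 it was 2.21 and did not pass (limma adjusted p = 0.0535). In 16.113 tumours the deficient arrays read 9.32, 9.72, 9.86, 8.92 and 10.58 and the competent ones 11.93, 11.62 and 11.27. Every competent array was above every deficient one. The difference of 1.93 ± 0.48 passed (limma adjusted p = 0.0170), as it did in 14 of 16 other fits; with arrays weighted by their quality it did not (limma adjusted p = 0.117).

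In MCA313 tumours Serpina3g read 9.15, 11.56 and 11.71 at 0 h, 12.59 and 12.94 at 24 h, and 12.73 and 12.54 at 48 h. Control replicate 1 was again the lowest. The differences were 1.96 ± 0.61 (limma adjusted p = 0.153) and 1.83 ± 0.61 (limma adjusted p = 0.162), and without that array 1.13 and 1.00. In J558L tumours it read 10.56 and 11.61 at 0 h and 12.82, 12.28 and 13.14 at 24 h, a difference of 1.67 ± 0.61 (limma adjusted p = 0.358). The groups did not overlap in any of these 3 comparisons, and none passed.

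**Figure D2:**
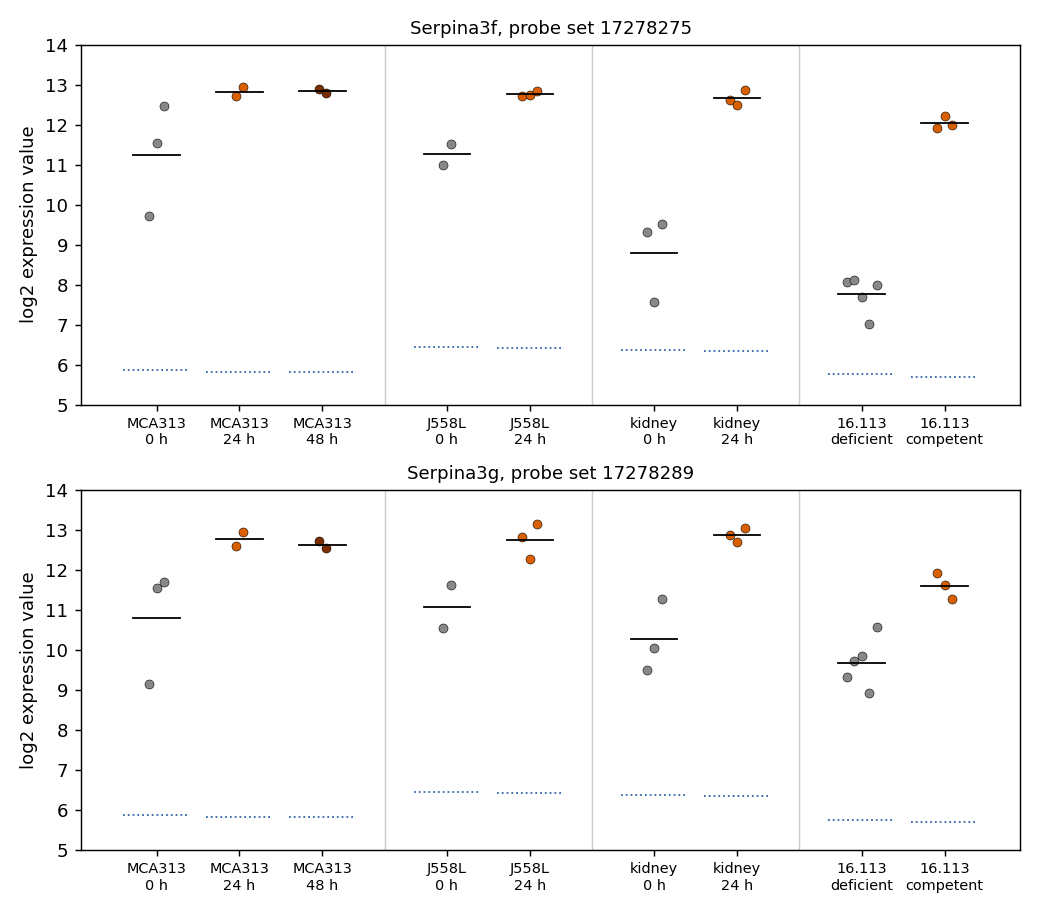
Log2 expression value of the brightest probe set of Serpina3f (top) and Serpina3g (bottom) in each of the 26 arrays, by group; grey points are controls, coloured points are groups exposed to IFNγ, black bars are group means and blue dotted lines are the array medians. Vertical lines separate the 4 normalization sets. In each set every exposed array lies above every control, and the Serpina3f control means are 11.24 in MCA313, 11.25 in J558L tumours, 8.80 in kidney and 7.77 in 16.113, with levels not comparable between sets.

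Counted over the cluster, 2 of 8 genes rose in the kidney, where 1.64% of all 4386 genes tested did, and 2 of 8 in 16.113 tumours, where 2.55% did. None of the 8 passed in MCA313 tumours at 24 h or 48 h or in J558L tumours, where 0.547%, 0.912% and 0.365% of all genes rose, and 2, 3 and 2 members had an unadjusted p under 0.05. No share over all genes was computed for the unadjusted counts. The median change over the 8 genes was 0.42, 0.29, 0.09, 0.33 and 0.24 in MCA313 at 24 h and 48 h, J558L tumour, kidney and 16.113, beside medians over all genes between -0.03 and 0.01. With the mean of a gene's probe sets in place of the brightest, Serpina3f and Serpina3g passed in MCA313 tumours at both times, Serpina3f in J558L tumours, and Serpina3h and Serpina3i joined them in the kidney.

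All 6 of Serpina3f and all 4 of Serpina3g were higher, with no overlap between groups, in each of the 5 comparisons with a control. Among the 39400 probe sets tested, 11%, 12%, 12.4%, 8.64% and 2.92% were higher without overlap in MCA313 at 24 h and 48 h, J558L tumour, kidney and 16.113, and of the 27 member probe sets 11, 13, 12, 16 and 11 were. With the adjusted p in place of overlap, 0, 0, 1, 11 and 11 member probe sets passed, all higher, where the shares over all probe sets were 0.127%, 0.17%, 0.107%, 0.683% and 1.34%. In the MCA313 comparisons 12 of the 27 had an unadjusted p under 0.05 at each time. The share over all probe sets was not computed for this count, so it has no baseline. The 27 include all 6 probe sets of Serpina3f and all 4 of Serpina3g, which are repeated readings of these genes.

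Within Serpina3f the size of the change varied with the probe set. In the kidney it ran from 0.77 at 17278269, which did not pass, to 6.02 at 17278273, and the median over the 6 was 4.60. Probe set 17278273 read 4.16, 5.18 and 8.25 without induction and 11.95, 11.71 and 11.99 at 24 h, a 64.8-fold difference (limma adjusted p = 2.67e-04). Control replicates 1 and 2 lay below the array medians of 6.33 to 6.40, near background, which leaves the fold poorly determined. In 16.113 tumours all 6 rose, by 1.63 to 5.07. The largest rise was at 17278276, where 2 of the 5 deficient arrays exceeded their medians, and at 17278271 none of them did. The sizes at these probe sets are poorly determined. In J558L tumours 17278271 alone passed: it read 4.87 and 5.05 at 0 h and 8.47, 8.14 and 8.46 at 24 h, a difference of 3.40 ± 0.57 (limma adjusted p = 0.0157), and in none of the 5 fits that left out 1 array did it pass. Both controls lay below the array medians of 6.42 to 6.46, so the size of this difference is poorly determined too. Probe set 17278271 exceeded the medians in 14 of 26 arrays, of which 1 was a control, from MCA313 tumours. It thus entered the test, in all comparisons, through the groups in which it was high.

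The range was narrower for Serpina3g. Its 4 probe sets rose by 2.60 to 3.80 in the kidney and by 1.93 to 3.21 in 16.113 tumours, and in MCA313 tumours at 24 h they stood 1.96 to 2.84 above control with adjusted p between 0.0690 and 0.239. When the 6 kidney arrays were fitted alone, none of the 11 kidney probe sets passed, and 7 of the 11 did with the 16.113 arrays alone.

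**Figure D3:**
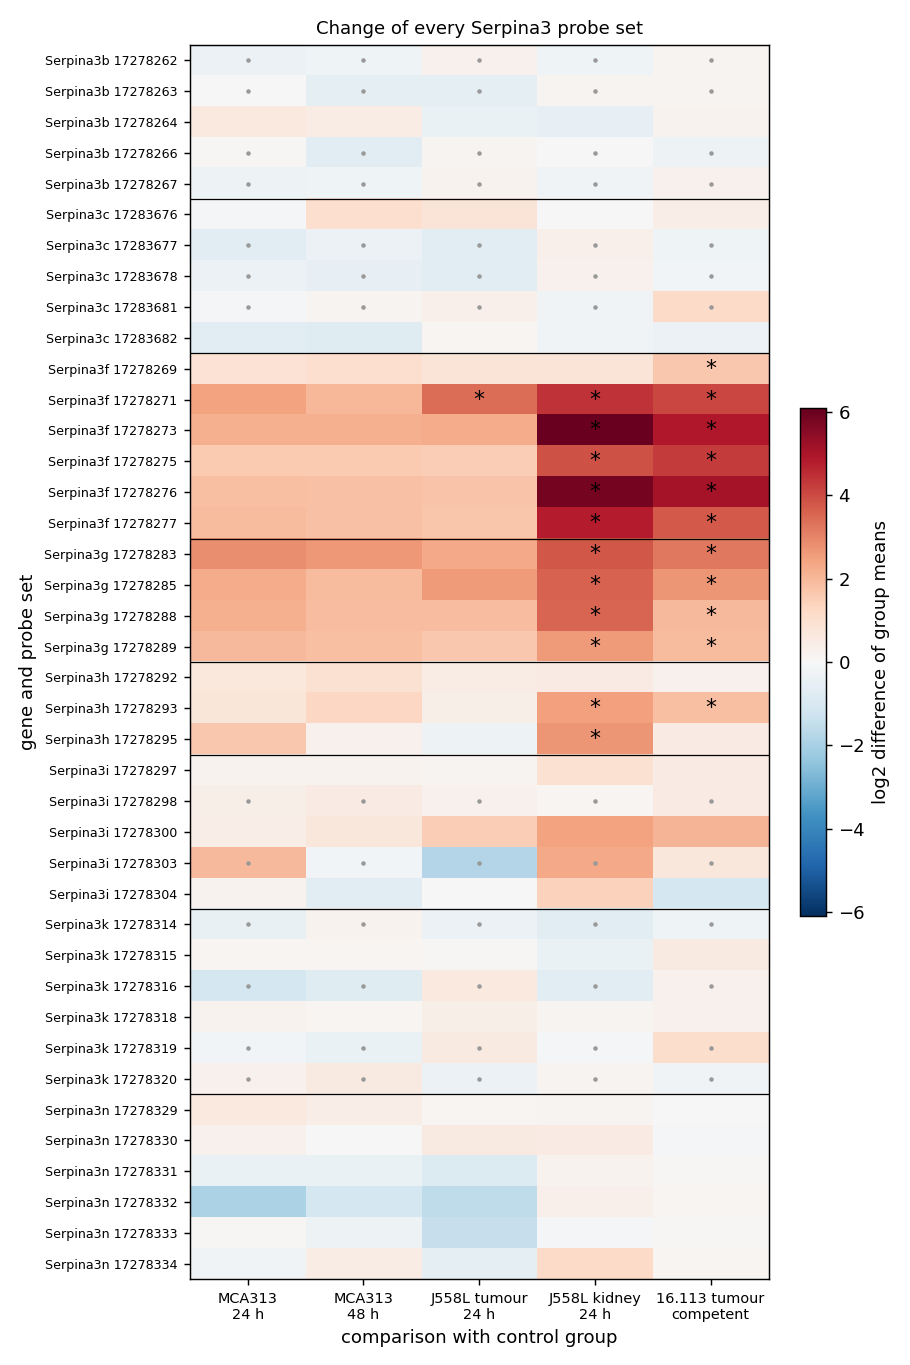
Log2 difference between group means for each of the 40 probe sets (rows, in order of identifier, grouped by gene) in the 5 comparisons with a control (columns), red for higher and blue for lower. Asterisks mark probe sets past the test and grey dots those too dim to be tested. The 10 rows of Serpina3f and Serpina3g are red throughout, and the called rows outside them are 2 of Serpina3h.

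Serpina3h, next to Serpina3g, passed at some of its probe sets and not at the one that stood for the gene. Probe set 17278293 read 4.15, 5.19 and 4.99 in uninduced kidney and 8.21, 6.86 and 6.83 at 24 h, a rise of 2.53 ± 0.50 (limma adjusted p = 0.0124). Probe set 17278295 read 3.31, 3.36 and 3.45 against 5.87, 6.43 and 5.83, a rise of 2.67 ± 0.58 (limma adjusted p = 0.0206). In 16.113 tumours 17278293 rose by 1.83 ± 0.45 (limma adjusted p = 0.0262), with the highest deficient array at 5.69 and the lowest competent array at 5.55, so that the groups overlapped. It did not pass in MCA313 or J558L tumours, with differences of 0.72, 1.28 and 0.38.

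The brightest Serpina3h probe set, 17278292, had group means between 4.94 and 6.04 and changed by at most 0.92, with none past the test. All controls of 17278293 and 17278295 lay below the array medians. Probe set 17278293 exceeded them in 7 of 26 arrays, all of them exposed to IFNγ, and 17278295 in 3, also all exposed, so both entered the test through the groups in which they were high. The probes' own sequences were not used, and how far a probe set also reads transcripts of its paralogs was not tested. Across the 26 arrays, centred within sets, 17278293 followed the brightest probe set of Serpina3f with r = 0.80, a description of arrays that share their treatment.

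Serpina3i, which follows Serpina3h, had no probe set past the test in any comparison. Its probe set 17278300 read 4.14, 4.06 and 4.46 in uninduced kidney and 6.83, 5.93 and 7.26 at 24 h, without overlap, a difference of 2.45 ± 0.72 (limma adjusted p = 0.112). In 16.113 tumours the deficient arrays read 2.68, 3.02, 3.72, 5.47 and 5.49 and the competent ones 5.90, 5.87 and 6.60, a difference of 2.05 ± 0.64 (limma adjusted p = 0.0788). All these kidney controls and deficient arrays lay below the array medians, which leaves the size of both differences poorly determined. The brightest probe set, 17278304, stood at +1.40 in the kidney and -1.08 in 16.113 tumours, so the probe sets of the gene disagreed in the latter. Without competent replicate 1 its difference there was -1.61 (limma adjusted p = 0.0403), and the mean of the gene's 5 probe sets was 0.54 higher.

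Serpina3n, the secreted granzyme B inhibitor at the far end of the cluster, was abundant in 16.113 tumours whichever T cells were given. Its brightest probe set, 17278331, read 10.80, 11.05, 11.25, 10.98 and 11.11 with deficient T cells and 10.92, 12.15 and 10.32 with competent ones, against array medians of 5.62 to 5.79. The groups overlapped, with competent replicate 2 highest and replicate 3 lowest, and the difference was 0.09 ± 0.54 (limma adjusted p = 0.948). Differences at its 6 probe sets lay between -0.07 and 0.11. In kidney 17278331 read 7.06, 8.23 and 8.85 without induction and 8.66, 8.78 and 7.27 at 24 h, a difference of 0.19 ± 0.61.

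In MCA313 tumours Serpina3n read 5.14, 6.90 and 8.18 at 0 h, 6.44 and 6.18 at 24 h, and 5.89 and 6.79 at 48 h. The medians of these arrays were 5.78 to 5.88, and control replicate 3 was the highest and replicate 1 the lowest of the 7 arrays. In J558L tumours it read 7.90 and 7.33 at 0 h and 7.40, 6.33 and 6.59 at 24 h. Of its 6 probe sets 17278332 alone was lower without overlap in MCA313 at 24 h and in J558L tumours, by 1.95 and 1.55 on the log2 scale. Neither difference passed (limma adjusted p = 0.234 and 0.652). Among all probe sets tested 11% and 12.4% were higher without overlap in these comparisons, and the share lower was not computed.

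**Figure D4:**
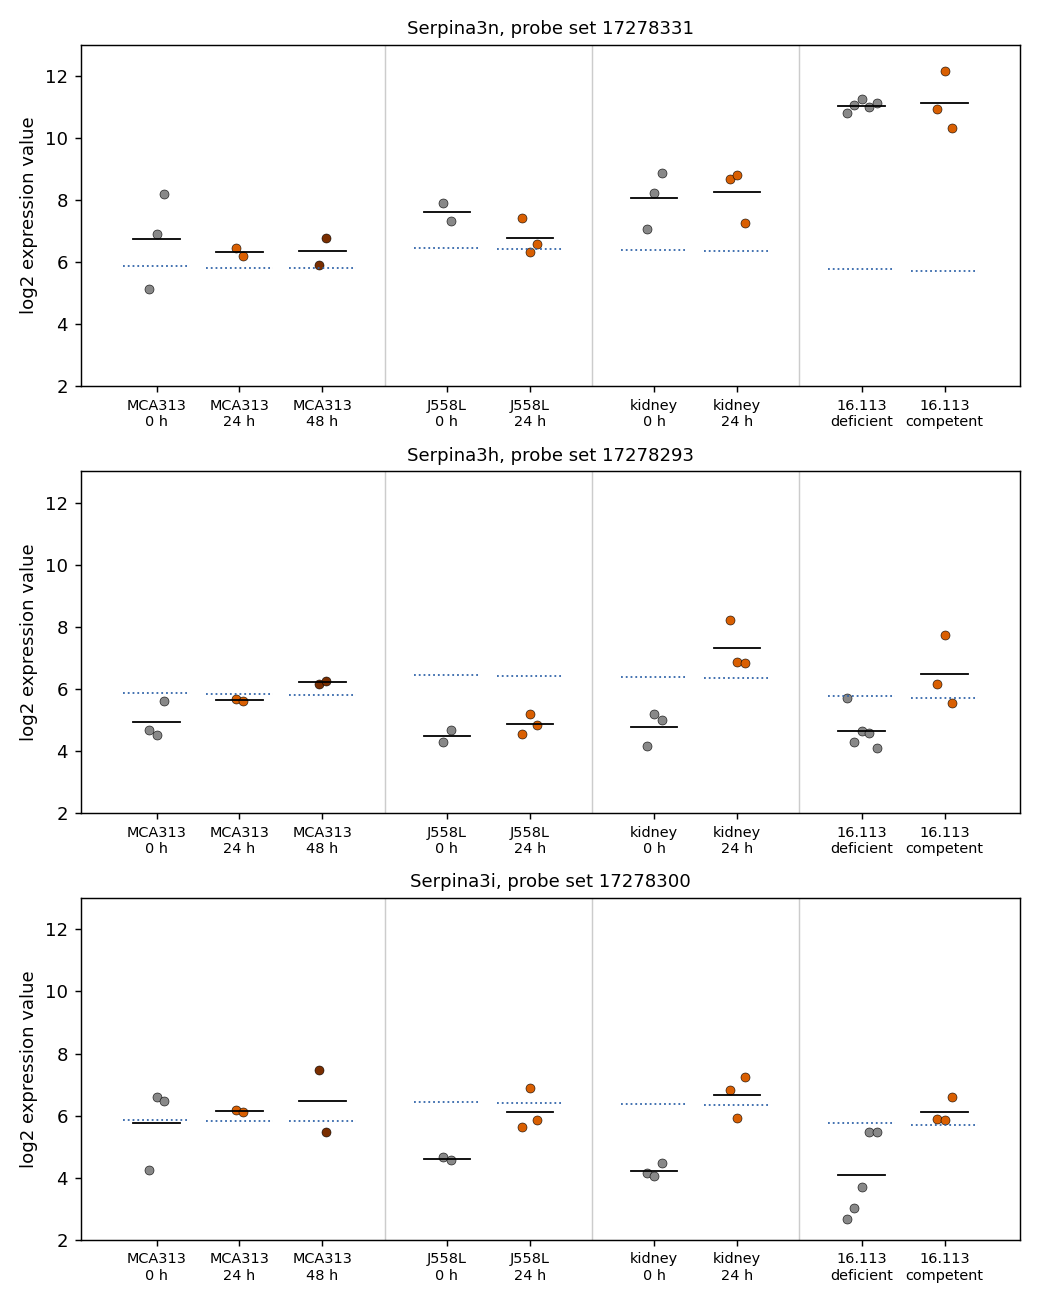
Log2 expression value in each of the 26 arrays, by group, for Serpina3n probe set 17278331 (top), Serpina3h probe set 17278293 (middle) and Serpina3i probe set 17278300 (bottom); grey points are controls, coloured points are exposed groups, black bars are group means and blue dotted lines are the array medians. Serpina3n is between 10.32 and 12.15 in the 16.113 arrays, and the other genes lie above the dotted line mainly in exposed groups.

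Most probe sets of Serpina3b, Serpina3c and Serpina3k were dim. Of their 16 probe sets 5 were tested, and none passed in any comparison. Serpina3b had 1 tested probe set, 17278264, which exceeded the array median in 4 of 26 arrays and ranged from 4.36 to 6.50, and its other 4 never did. The brightest probe set of Serpina3c, 17283682, was above the median in 25 arrays, with levels of 5.54 to 7.43 and changes between -0.73 and 0.10. Serpina3k, also known as kallikrein-binding protein, had 4 probe sets that never exceeded the medians, and its brightest, 17278315, exceeded them in 19 arrays and differed by -0.39 in the kidney and 0.56 in 16.113 tumours. Changes over all 16 probe sets of the 3 genes ran from -1.08 to 1.18.

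Differences between responses were tested directly. The Serpina3f change in J558L tumours was 2.35 ± 0.75 smaller than in the kidney (log2 difference -2.35; limma adjusted p = 0.507) and the change in 16.113 was 2.75 ± 0.72 larger than in J558L tumours (limma adjusted p = 0.287). For Serpina3g these differences were -0.93 ± 0.81 and 0.26 ± 0.78. None of the 8 genes passed in either, nor between MCA313 and J558L tumours at 24 h, where Serpina3f and Serpina3g differed by 0.06 ± 0.79 and 0.29 ± 0.86. Over all genes 0.0228% passed in the first and 0% in each of the others (limma), and 1, 1 and 0 members had an unadjusted p under 0.05. Between 24 h and 48 h in MCA313 tumours, where 0.0684% of all genes passed, no member did, with Serpina3f at 0.02 ± 0.61 and Serpina3g at -0.13 ± 0.66, and 0 members had an unadjusted p under 0.05.

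**Figure D5:**
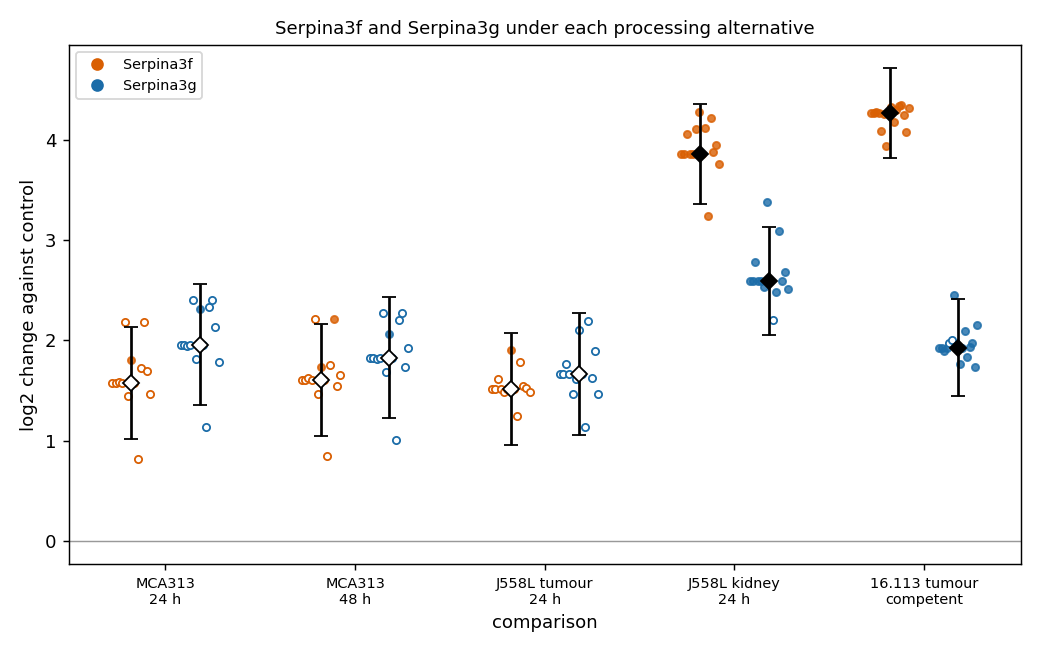
Log2 change of Serpina3f (orange) and Serpina3g (blue) against control in the 5 comparisons. Diamonds are the reported values with their standard errors, circles are the values under each other processing choice or with 1 array left out, and filled symbols have an adjusted p below 0.05. All values are above 0; in the 3 comparisons to the left few symbols are filled, and in the kidney and 16.113 nearly all are.

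Serpina3f and Serpina3g followed each other with r = 0.88 over the 26 arrays, again centred within sets; arrays of a group share their treatment, and the values are descriptions. Among the 4378 genes outside the cluster, those most like Serpina3f were Gm12250 and Igtp, which encode interferon-inducible GTPases, and Wars, a tryptophan tRNA synthetase gene, with r of 0.94 each. Those most like Serpina3g were Slfn2, a Schlafen family gene (r = 0.95), Serpinb9, an intracellular granzyme B inhibitor (r = 0.93), and Sp140, a nuclear body gene (r = 0.92). Gm12250 rose by 2.25 in the kidney and 3.56 in 16.113 tumours, and Igtp by 1.22 and 2.73. Sp140 rose in all 5 comparisons, by 1.98 to 2.59, and Slfn2 in all but J558L tumours.

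No neighbouring serpin passed. Of 19 other clade A serpins and chromosome 12 neighbours 15 were tested, and none was called in the 5 comparisons with a control (limma), with 1 at an unadjusted p under 0.05 in each. Serpina3a, upstream of Serpina3b, stood at 1.39 in MCA313 tumours at 48 h and -0.85 in the kidney, and Serpina3j, between Serpina3i and Serpina3k, at 0.39 in J558L tumours and 0.44 in the kidney. Serpina11 stood at 0.57 in the kidney and 0.52 in 16.113 tumours. Serpina1b stood at 1.26 in MCA313 tumours at 24 h and Serpina1d at -1.48 in J558L tumours. The Serpina1d means there were 4.81 at 0 h and 3.33 at 24 h, below the array medians of 6.42 to 6.46. The list medians were 0.01, 0.08, 0.08, 0.05 and 0.19 in the order given above.

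Of 26 serpins of other clades 14 were tested. Serpinb9 rose in the kidney by 1.21 ± 0.31 (limma adjusted p = 0.0367) and in 16.113 tumours by 1.54 ± 0.28 (limma adjusted p = 0.00179). Serpinb2, which encodes plasminogen activator inhibitor type 2, fell in 16.113 tumours by 3.78 on the log2 scale (limma adjusted p = 0.00111), and Serpinb5, the maspin gene, fell by 0.91 (limma adjusted p = 0.0405). None passed in MCA313 or J558L tumours, where 5, 4 and 3 had an unadjusted p under 0.05. Serpinb6b stood there at 1.91, 1.70 and 1.86, Serpinb8 at 1.95, 1.64 and 1.53 and Serpinb9 at 1.20, 1.08 and 1.28.

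Of 21 listed proteases 4 were tested, Ctse, Elane, Gzmm and Prtn3. None of the 4 passed or had an unadjusted p under 0.05 in the 5 comparisons (limma). The granzyme B gene and the cysteine cathepsin genes of the list were not tested, so nothing is said here of these targets. Elane, the neutrophil elastase gene, stood at 0.71 in J558L tumours and 0.65 in MCA313 at 48 h, and Gzmm, the granzyme M gene, at -0.58 in the latter and 0.50 in the former. Of 22 acute-phase products Crp alone was tested, with changes between -0.01 and 0.36 and none past the test.

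Of 28 STAT and acute-phase regulators 12 were tested, and 2, 3, 2, 0 and 4 rose in the 5 comparisons, with none lower, where 0.547%, 0.912%, 0.365%, 1.64% and 2.55% of all genes rose. Irf4, a transcription factor of lymphocytes and myeloid cells, rose by 3.39, 3.04 and 2.90 in MCA313 at 24 h and 48 h and J558L tumours, and by 2.51 in 16.113. Irf1, an interferon-inducible transcription factor, rose by 1.83 ± 0.20 in 16.113 tumours (limma adjusted p = 8.03e-06) and by 1.06 in MCA313 at 48 h. Socs3, the feedback inhibitor that limits STAT3 signalling, rose by 1.63 and 1.17 in MCA313 and 1.25 in J558L tumours. Stat2 and Stat5b rose by 0.72 and 0.92 in 16.113 tumours. In the kidney, where Serpina3f rose 14.6-fold, Stat2 stood at 0.45 and Irf1 at 0.42, and neither passed. Stat3, which drives acute-phase genes in liver, stood between 0.10 and 0.31 in the 5 comparisons.

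Because sorted cells were measured in bulk, a change in RNA per cell and a change in the share of a cell type cannot be told apart. None of the tested leukocyte (8) or T and NK cell (5) markers passed in the 5 comparisons (limma), with at most 1 at an unadjusted p under 0.05 in each. Mean levels over the leukocyte list ranged from 7.16 to 7.53 in uninduced kidney and 7.44 to 7.70 at 24 h, and from 7.21 to 8.44 with deficient and 7.49 to 8.18 with competent T cells. For the T and NK cell list these were 6.99 to 7.61 and 7.34 to 7.40, and 6.36 to 6.59 and 6.63 to 6.74. In the kidney the tubular transporter gene Slc5a10 rose by 1.24 and the stromal gene Prelp fell by 1.76 on the log2 scale. The kidney epithelial list ranged from 7.56 to 7.74 without induction and from 7.99 to 8.09 at 24 h, and the fibroblast and mural list from 9.51 to 9.85 and from 9.18 to 9.50. In 16.113 tumours the plasma cell gene Sdc1 fell by 0.94 on the log2 scale, while Irf4 is on that list too, which ranged from 9.23 to 9.54 with deficient and 9.68 to 9.77 with competent T cells. That list was also higher without overlap in the other comparisons: 9.20 to 9.62 at 0 h, 10.15 to 10.17 at 24 h and 9.81 to 10.16 at 48 h in MCA313 tumours, 9.62 to 9.71 and 10.17 to 10.47 in J558L tumours, and 9.10 to 9.24 and 9.29 to 9.33 in the kidney. The plasma cell list has 5 measured genes, Irf4 among them, so its mean moves with Irf4. The median changes over the 5 genes were 0.14 and 0.13 in MCA313 tumours at 24 h and 48 h. They were 0.22 in J558L tumours, 0.15 in the kidney and -0.20 in 16.113 tumours. In MCA313 tumours Fbln5 of the fibroblast list fell at 24 h and the endothelial gene Sele at 48 h. The part of these shifts in the Serpina3 results was not tested.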

How the data were processed

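The values used are the log2 expression values per probe set that the authors normalized and deposited. Per the submitters' processing notes Affymetrix Expression Console and limma were used, and how they were normalized is not given in these sources. Exact values recurred between arrays within 4 sets (421 to 2650 per pair) and hardly between them (0 to 2), so levels were compared within sets. The table used here covers part of the array, with 5109 genes named by single-symbol probe sets, and the precision is limited by the number of arrays.

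Probe sets were named by the array's annotation, with symbols updated through RefSeq (GRCm38.p6): 4618 were current, 494 synonyms and 8 unmatched. A gene was read by whichever of its probe sets had the highest mean of the 26 arrays. Genes (4386) or single-symbol probe sets (39400) above the array median in at least 2 arrays entered limma 3.58.1 (R 4.3.3), with 9 group means, two-sided moderated tests and Benjamini-Hochberg adjustment over all of them, at 0.05. The spread was estimated from all groups together, since some hold 2 arrays. The procedure was tested on simulated data. Likeness is Pearson's r over the 26 arrays after subtracting set means; the 3 genes most like each called member are named. From each list the members past the test with the largest change, up to 4, or up to 2 where none passed, were to be named; other listed genes given here were chosen after their values were seen. Members and lists were chosen with earlier results of these data known. Promoters were searched on both strands. Counts with an unadjusted p under 0.05 are given without a share over all genes or probe sets, which was not computed.

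Alternatives were no filter, a 75th percentile filter, quantile normalization of all arrays, averaged probe sets, a trended robust prior, array weights, a replicate block, the compared arrays alone, and each array left out.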

Additional observations from a re-analysis of the deposited data

Results flagged for a closer look

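In groups of 4 or more arrays, which here is the 16.113 group with deficient T cells alone, an array far from the rest was looked for at each of the 40 member probe sets, and chance gives about 1 such group in 20. There were 2. Serpina3c probe set 17283677 read 5.78 in replicate 2, with the nearest array at 4.89 and the lowest at 4.64. Serpina3i probe set 17278303 read 5.69 in replicate 5, with the nearest at 3.30 and the lowest at 2.68. Both probe sets were too dim to be tested.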

How the results depend on the processing

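No Serpina3 value past the test turned its direction under any alternative; of 1076 member values, 81 changed sign, none of them past the test, 9 came to pass and 3 ceased to. Averaging a gene's probe sets gave 2 member genes in MCA313 at 24 h and 2 at 48 h (0 as reported), 1 in J558L tumours (0) and 4 in kidney (2). Array weights gave 1 gene in 16.113 (2). Leaving out 1 array gave 0 to 1 genes in MCA313 at 48 h (1 without 0 h replicate 3) and 1 to 2 in kidney (1 without control replicate 1). Of probe sets, 1 passed in MCA313 at 24 h and 1 at 48 h (0 as reported) with the 75th percentile filter, and 1 and 1 with the trended prior; 0 passed in kidney and 7 in 16.113 with the compared arrays alone (11 and 11). Leaving out 1 array gave 0 to 2 probe sets in MCA313 at 24 h and at 48 h (2 without 0 h replicate 3) and 0 to 0 in J558L tumours (1 as reported). The replicate number as a block gave 1 gene in 16.113 (2 as reported), with Serpina3g at adjusted p = 0.0818 in limma, and 0, 7 and 6 probe sets in J558L tumour, kidney and 16.113 (1, 11 and 11). Deviations of same-numbered arrays correlated between -0.144 and 0.113, so the numbers were not taken to pair samples. Over all genes the 30, 60, 24, 139 and 323 calls ranged over 1 to 123, 4 to 136, 1 to 127, 43 to 260 and 34 to 565. The causes were not tested, and signal near the array medians limits Serpina3b, Serpina3c, Serpina3h, Serpina3i and Serpina3k.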
